A study of Mus musculus with 2 samples.

Results

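The genes described here make, break down, carry and sense retinoic acid, and they were measured in the facial prominence of mouse embryos. They were chosen by name, for their roles, as 1 retinol dehydrogenase (Rdh10), 3 retinaldehyde dehydrogenases (Aldh1a1, Aldh1a2 and Aldh1a3), 1 retinoic acid hydroxylase (Cyp26b1), 2 cellular retinoic acid binding proteins (Crabp1 and Crabp2) and 3 nuclear receptors (Rara, Rarb and Rarg). All 10 were found by Ensembl identifier among the 43346 Ensembl genes of both gene tables. Total RNA was sequenced from tissue of strain B6NCrl at embryonic day 14.5, in 1 group of 2 biological replicates, with 10.0 ng of RNA and a SMART-seq protocol for each library. Each sample is labelled as the cranioface of a single embryo, and the collection days differ, yet the labels also give the sex as pooled or mixed, so whether a library holds 1 embryo could not be settled. No treatment, genotype or stage is compared, and the values describe the levels in this tissue and the spread between the libraries.

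Retinoic acid is made from vitamin A in a pair of steps. Rdh10 oxidises retinol to retinaldehyde, and the Aldh1a enzymes oxidise retinaldehyde to retinoic acid, which diffuses to neighbouring cells and is hydroxylated by Cyp26 enzymes for removal. Inside the cell it is bound by Crabp proteins and acts on Rar receptors, which sit on DNA as partners of retinoid X receptors and recruit corepressors or coactivators. Growth of the frontonasal region, the palate and the eye is known to require this pathway, and both excess and lack of vitamin A cause facial malformations. In bulk tissue fewer cells of a type and less RNA per cell cannot be told apart.

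The starts of 4 of these genes are shown because the transcript shares and levels below refer to them. Windows from 250 bases before to 50 bases after a start, from RefSeq on GRCm38.p6, were matched for 7 of the 10 genes, 12 windows in all. Aldh1a3, Rdh10 and Crabp2 were not matched. Each window was searched on both strands for the hexamers AGGTCA and AGTTCA and for the hexamers GGGTCA and GGTTCA, the letters that retinoic acid receptors are known to bind in pairs. It was also searched for such hexamers repeated in 1 direction with 5, 2 or 1 bases between them (DR5, DR2 and DR1), for the GC box GGGCGG and for TATAAA. A DR5 was found in 1 of the 7 genes, Rarb, and in 0.0974% of all 32851 windows of 300 bases. No DR2 or DR1 was found in the 12 windows, against 0.268% of all windows with a DR2 and 0.222% with a DR1.

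The DR5 of Rarb is shown in capitals with its flanks, on the minus strand at chr14:16575506-16575535, and it lies at −53 to −37 from the RefSeq start. GENCODE places the start of Rarb-201 upstream of this stretch, so by that annotation the DR5 is in the first exon.
Rarb, DR5: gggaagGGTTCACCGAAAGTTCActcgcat
It holds a pair of hexamers, which are also counted among the 3 hexamers of that window. A hexamer alone was found in 5 of the 12 windows, against 43.7% of all windows. These matches are descriptions of letters and do not show binding.

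Before the upstream start of Rarg (Rarg-201, minus strand, chr15:102257523-102257672) and its internal start (Rarg-202, minus strand, chr15:102246501-102246650) the 150 bases differ in GC content, at 80% and 58%. The capitals mark GC boxes on either strand, of which the internal stretch has none.
Rarg-201, upstream start: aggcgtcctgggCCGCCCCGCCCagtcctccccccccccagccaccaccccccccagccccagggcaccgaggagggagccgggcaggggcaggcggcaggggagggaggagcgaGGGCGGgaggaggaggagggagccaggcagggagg
Rarg-202, internal start: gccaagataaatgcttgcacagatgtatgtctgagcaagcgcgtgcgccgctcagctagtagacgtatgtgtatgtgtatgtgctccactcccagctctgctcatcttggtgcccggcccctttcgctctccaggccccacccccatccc
The same capitals mark GC boxes before the adjacent starts of Rara-204 and Rara-201 (plus strand, chr11:98937548-98937687), and before the start of Crabp1 (plus strand, chr9:54764648-54764747), the most abundant of the 10 genes.
Rara-201, upstream start: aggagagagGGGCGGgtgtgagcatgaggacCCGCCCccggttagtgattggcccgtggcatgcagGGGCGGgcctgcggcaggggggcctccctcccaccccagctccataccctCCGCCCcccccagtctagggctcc
Crabp1: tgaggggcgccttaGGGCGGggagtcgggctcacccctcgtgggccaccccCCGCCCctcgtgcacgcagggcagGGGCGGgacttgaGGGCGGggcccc
None of these 4 stretches overlaps an exon in GENCODE M21. GC boxes were found in windows of Cyp26b1, the lowest of the 10 genes by mean, and of Crabp1, Rara and Rarg. None was found in those of Aldh1a1, Aldh1a2 and Rarb. TATAAA was found in the window of Cyp26b1 alone. Of all windows 35.7% held a GC box and 13.6% held TATAAA. Whether these letters bear on the level of a gene was not tested.

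Replicate 1 held 30919488 expected counts, the estimated reads per gene, and replicate 2 held 37738872. Levels are given as TPM, a transcript abundance scaled for length and depth, with the mean ± SD over both libraries (n = 2). With 2 samples the smallest two-sided p of an exact sign permutation is 0.5, so no test across embryos was made. Markers of the labelled tissue were present, with 6 of 6 genes of facial mesenchyme and 5 of 5 of surface epithelium at 1 TPM or more in both libraries. Retina and pigment epithelium, a site of Aldh1a1 and Aldh1a3 in the embryo, had 0 of 6 markers at that level, with summed levels of 2.20 TPM in replicate 1, against 1.97 TPM in replicate 2. Olfactory epithelium and meninges, other known sites of retinaldehyde dehydrogenases, had 5 of 5 markers each. The olfactory markers summed to 208 TPM in replicate 1 against 229 TPM in replicate 2, and the meningeal ones to 383 TPM in replicate 1 against 409 TPM in replicate 2.

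All 10 genes reached 1 TPM in both libraries, as did 34.9% of all Ensembl genes and 13717 of the 21474 protein-coding genes. Their levels spanned 71.1-fold, led by the binding proteins and then Rarg, with the other receptors interleaved with the enzymes. The median over the 10 genes was 29.8 TPM. Every gene rested on at least 195 and at most 5617 expected counts in a library, and all 20 of these counts were whole numbers within 0.005, which leaves no sign in the gene counts that reads were divided between genes.

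**Figure D1:**
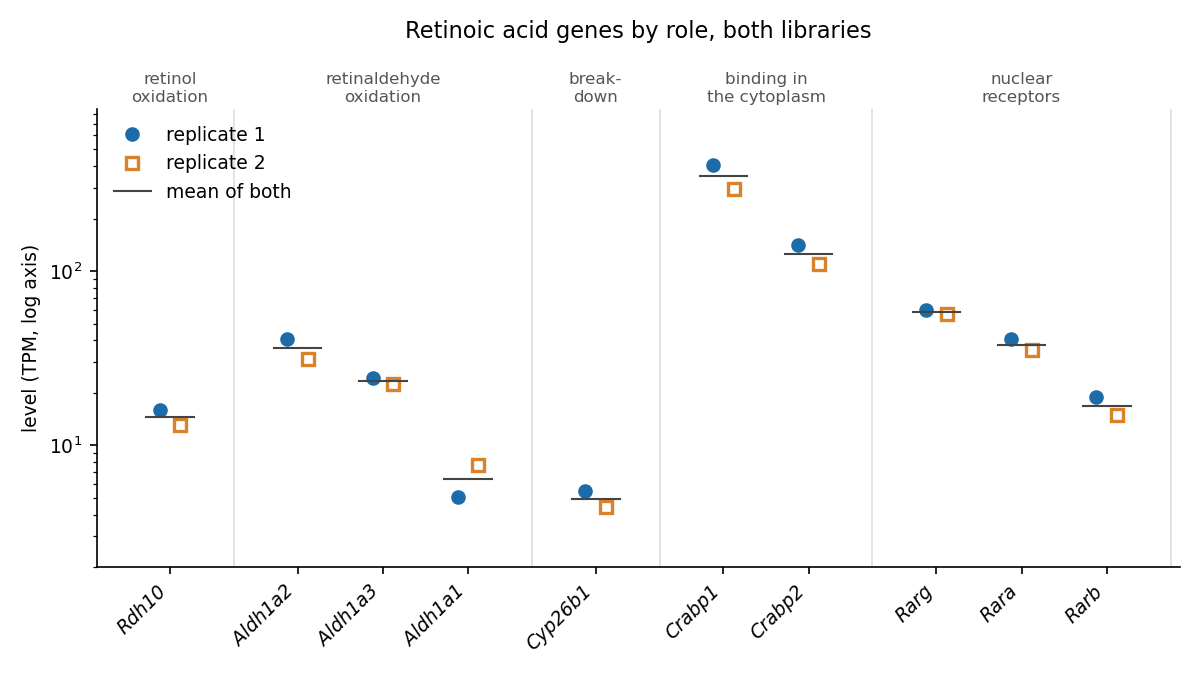
Level of each gene in TPM on a log axis, grouped by role, with replicate 1 as filled circles, replicate 2 as open squares and the mean as a line. Crabp1 stands highest at 405 TPM in replicate 1 against 296 TPM in replicate 2 and Cyp26b1 lowest at 5.46 TPM in replicate 1 against 4.40 TPM in replicate 2, and Aldh1a1 alone has the square above the circle on this TPM scale, where Rarg and Aldh1a3 turn with other scalings.

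Rdh10, the enzyme of the retinol step (chr1:16105774-16133734, mm10), had 15.89 TPM in replicate 1, against 13.10 TPM in replicate 2, or 14.5 ± 1.97 TPM. Its main transcript Rdh10-201, which encodes 341 residues, took 92.2% of the gene's TPM in replicate 1 against 89.1% in replicate 2. The rest went to Rdh10-202, a transcript with a retained intron. Dhrs3, which reduces retinaldehyde back to retinol and so works against Rdh10, had 53.3 TPM in replicate 1, against 50.4 TPM in replicate 2. That is 3.60 ± 0.35 times the level of Rdh10.

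Of the retinaldehyde dehydrogenases, Aldh1a2 was the most abundant in both libraries. Aldh1a2, the main enzyme of early embryonic mesoderm (chr9:71215789-71296243), had 40.90 TPM in replicate 1, against 31.39 TPM in replicate 2. Aldh1a3, which is known from facial and nasal ectoderm and the ventral eye (chr7:66390890-66427517), had 24.31 TPM in replicate 1 against 22.51 TPM in replicate 2, and Aldh1a1 (chr19:20492715-20643465) had 5.06 TPM in replicate 1 against 7.71 TPM in replicate 2. The ranges of the 3 genes did not overlap. Of the summed Aldh1a level Aldh1a2 took 54.6% ± 5.13, Aldh1a3 35.6% ± 1.37 and Aldh1a1 9.86% ± 3.76. The share of Aldh1a1 was 7.20% in replicate 1 and 12.5% in replicate 2, the largest spread relative to its mean of the 3.

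In TPM Aldh1a1 was the exception among the 10 genes in its direction between the libraries, whereas Rarg and Aldh1a3 were also lower in replicate 1 with TMM factors, DESeq2 size factors or centring on the median gene, and Rarg with FPKM. Aldh1a1 had 195 expected counts in replicate 1 and 384 in replicate 2, a ratio of CPM, the counts scaled to depth, of 0.606, replicate 1 over replicate 2, with an exact 95% counting interval of 0.507 to 0.721. Its neighbour in sequence, Aldh1a7, a rodent gene 88.9% identical over 2069 aligned bases, had 6.19 TPM in replicate 1 against 7.92 TPM in replicate 2, also lower in replicate 1, with a ratio of 0.721 (0.612 to 0.848). The counts of Aldh1a1 and Aldh1a7 were whole, and the posterior SD of the count was 0.07 for both genes in both libraries, so the deposited values show next to no reads divided between these near copies. In Aldh1a1 the deposited tables hold 1 transcript, Aldh1a1-201, of 501 residues, and GENCODE M21 adds 5 others.

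In Aldh1a3 the full-length form Aldh1a3-201, of 512 residues, took 76.5% of the gene's TPM in replicate 1 and 73.2% in replicate 2. Nearly all of the rest, 23.5% in replicate 1 against 26.1% in replicate 2, was Aldh1a3-203, a shorter transcript annotated with 176 residues. Aldh1a2 is represented by 1 transcript of 518 residues. Aldh1a2 and Aldh1a3 are 69.9% identical over 1490 aligned bases.

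Cyp26b1, which hydroxylates retinoic acid and is known to shield skeletal and craniofacial tissue from it (chr6:84571414-84593908), was the lowest of the 10 genes by mean. It had 5.46 TPM in replicate 1, against 4.40 TPM in replicate 2, from 495 expected counts in replicate 1 and 517 in replicate 2. Its 2 transcripts encode the same 512 residues and differ outside them. The deposited split gave Cyp26b1-201 a share of 0% in replicate 1 and 16.1% in replicate 2, but the posterior mean counts of that transcript were 64.8 ± 87.0 in replicate 1 and 156 ± 116 in replicate 2 (posterior SD of the authors' quantifier), so this split was not resolved. Of its relatives, Cyp26a1 had 6.42 TPM in replicate 1 against 4.97 TPM in replicate 2 and Cyp26c1 1.45 TPM in replicate 1 against 0.640 TPM in replicate 2. The summed Aldh1a level was 13.4 ± 0.80 times that of Cyp26b1 and 5.71 ± 0.62 times that of the 3 Cyp26 genes together.

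The binding proteins stood far above the enzymes. Crabp1 (chr9:54764748-54773110), known from cranial neural crest and its mesenchyme, had 405.21 TPM in replicate 1, against 296.12 TPM in replicate 2. It ranked 352 among 21474 protein-coding genes. Crabp2 (chr3:87948666-87953376), known to hand retinoic acid to the receptors in the nucleus, had 141.84 TPM in replicate 1 against 110.34 TPM in replicate 2. Crabp1 took 73.5% ± 0.86 of the summed level of both, and it was 2.86 times as high as Crabp2 in replicate 1 and 2.68 times in replicate 2. The 2 genes are 71.2% identical over 424 aligned bases and encode 137 and 138 residues. Their summed level was 547 TPM in replicate 1, against 406 TPM in replicate 2, which is 4.21 ± 0.55 times that of the 3 receptors. Crabp2-202, a transcript with a retained intron, took 0.640% of Crabp2 in replicate 1 against 0.190% in replicate 2.

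Among the receptors Rarg was highest, then Rara, then Rarb, in each library. Rarg (chr15:102234938-102257517), known from skin and cartilage, had 59.68 TPM in replicate 1, against 56.49 TPM in replicate 2. Rara (chr11:98927818-98974942), which is widely expressed, had 40.53 TPM in replicate 1 against 35.05 TPM in replicate 2. Rarb (chr14:16430839-16819156), itself a known target of retinoic acid through the DR5 shown above, had 18.87 TPM in replicate 1 against 14.83 TPM in replicate 2. The ranges of the 3 receptors did not overlap. Rarg took 51.6% ± 2.11, Rara 33.5% ± 0.77 and Rarb 14.9% ± 1.35 of the summed receptor level. That sum was 119 TPM in replicate 1, against 106 TPM in replicate 2.

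The retinoid X receptors, the partners of the Rar proteins on DNA, were each lower than Rara and Rarg. Rxrb had 22.38 TPM in replicate 1, against 19.33 TPM in replicate 2, Rxrg 20.50 TPM in replicate 1 against 15.94 TPM in replicate 2, and Rxra 9.17 TPM in replicate 1 against 8.75 TPM in replicate 2. All 3 were expressed, and the summed level of the Rar genes was 2.35 ± 0.09 times theirs. The ranges of Rxrb and Rxrg overlapped.

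Rara was split between starts that change its first coding exon. Rara-202 begins 22694 bases downstream of Rara-201 and encodes 459 residues, whereas Rara-201, Rara-203, Rara-204 and Rara-207 share one coding sequence of 462 residues. The forms have 7 of 8 coding exons in common and differ in 1. Rara-202 took 24.0% of Rara's TPM in replicate 1 and 24.6% in replicate 2, at 9.73 TPM in replicate 1 against 8.62 TPM in replicate 2, and the other 4 together took 76.0% in replicate 1 against 75.4% in replicate 2. The share of Rara-202 had an SD of 0.42 percentage points (n = 2).

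Within the 462-residue form the transcripts from the upstream starts differed in share. Rara-203 and Rara-204 also end earlier than Rara-201 and Rara-207, and Rara-201 has an exon that these others lack. The shares therefore do not measure the use of starts alone. Rara-204, whose start follows the GC boxes shown above, took 49.7% in replicate 1 and 46.1% in replicate 2, and Rara-203, the most upstream, took 19.8% in replicate 1 against 13.9% in replicate 2. Rara-207, whose window holds 4 hexamers and no GC box, took 5.89% in replicate 1 against 14.8% in replicate 2. The deposited credibility bounds of Rara-207 overlapped between libraries, at 4.10e-06 to 3.94 TPM in replicate 1 and 2.53 to 6.97 TPM in replicate 2, and their level is not stated. Those of Rara-203 also overlapped, at 3.50 to 11.9 TPM in replicate 1 and 2.16 to 8.44 TPM in replicate 2. Rara-201, which starts next to Rara-204 and after the same GC boxes, took 0.620% in replicate 1 against 0.600% in replicate 2. These transcripts share most of their bases, so the split among them is less certain than that between the coding forms. No window lay at the starts of Rara-203 and Rara-202, so these starts were not searched. Whether the letters before a start bear on its share was not tested.

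Rarg had a similar arrangement, with its upstream start ahead. Rarg-201, of 458 residues, took 65.6% of Rarg's TPM in replicate 1 and 58.7% in replicate 2, and Rarg-202, of 447 residues, took 31.9% in replicate 1 against 36.3% in replicate 2. Their starts lie 11017 bases apart, and they have 7 of 8 coding exons in common. In TPM, Rarg-201 had 39.16 in replicate 1 and 33.17 in replicate 2, and Rarg-202 had 19.05 in replicate 1 and 20.50 in replicate 2. In each library the transcript from the GC-rich start was the higher, by ranges that did not overlap. Whether the GC content bears on this was not tested. Rara and Rarg are 80.2% identical over 1074 aligned bases.

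**Figure D2:**
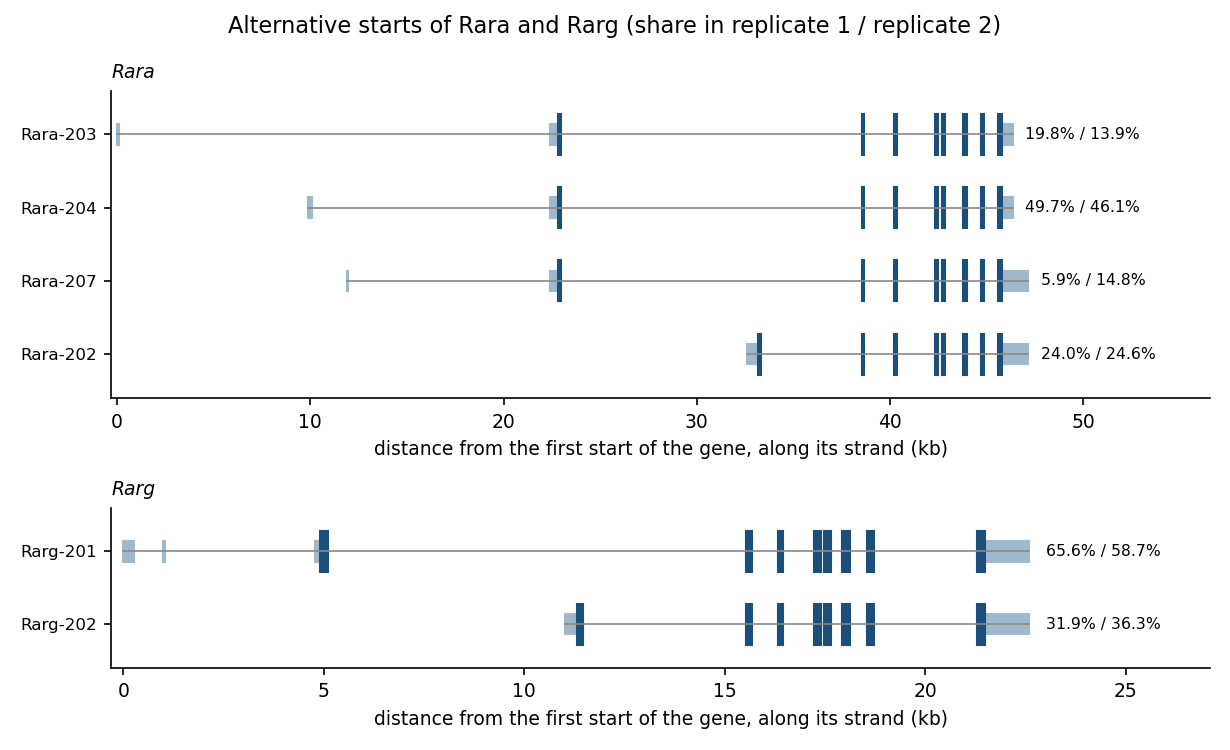
Exons of the transcripts of Rara and Rarg that took 10% or more of their gene in either library, by distance in kb from the first start along the gene's strand. Dark tall boxes are coding, light boxes are not, and the percentages at the right are the shares in replicate 1 and replicate 2. The coding exons coincide except for the first.

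Rarb could not be divided in this way. The deposited tables hold Rarb-201 alone, of 448 residues, which had 100% in both libraries by construction. GENCODE M21 lists 6 more transcripts of Rarb, among them Rarb-203 and Rarb-204, which start far upstream at 16819156 and 16819005 on chromosome 14. Reads from their own exons are not counted under Rarb in these tables. Exons of Top2b, a DNA topoisomerase gene on the opposite strand, overlap 1793 of the 3108 exonic bases of Rarb-201 in GENCODE M21, or 57.7%. Top2b had 66.3 TPM in replicate 1, against 61.6 TPM in replicate 2. Whether counting used the strand is not given in the sources used here, and how reads of that stretch were assigned was not tested. Both genes had whole counts with a posterior SD of 0, so the deposited values show no reads divided between them.

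**Figure D3:**
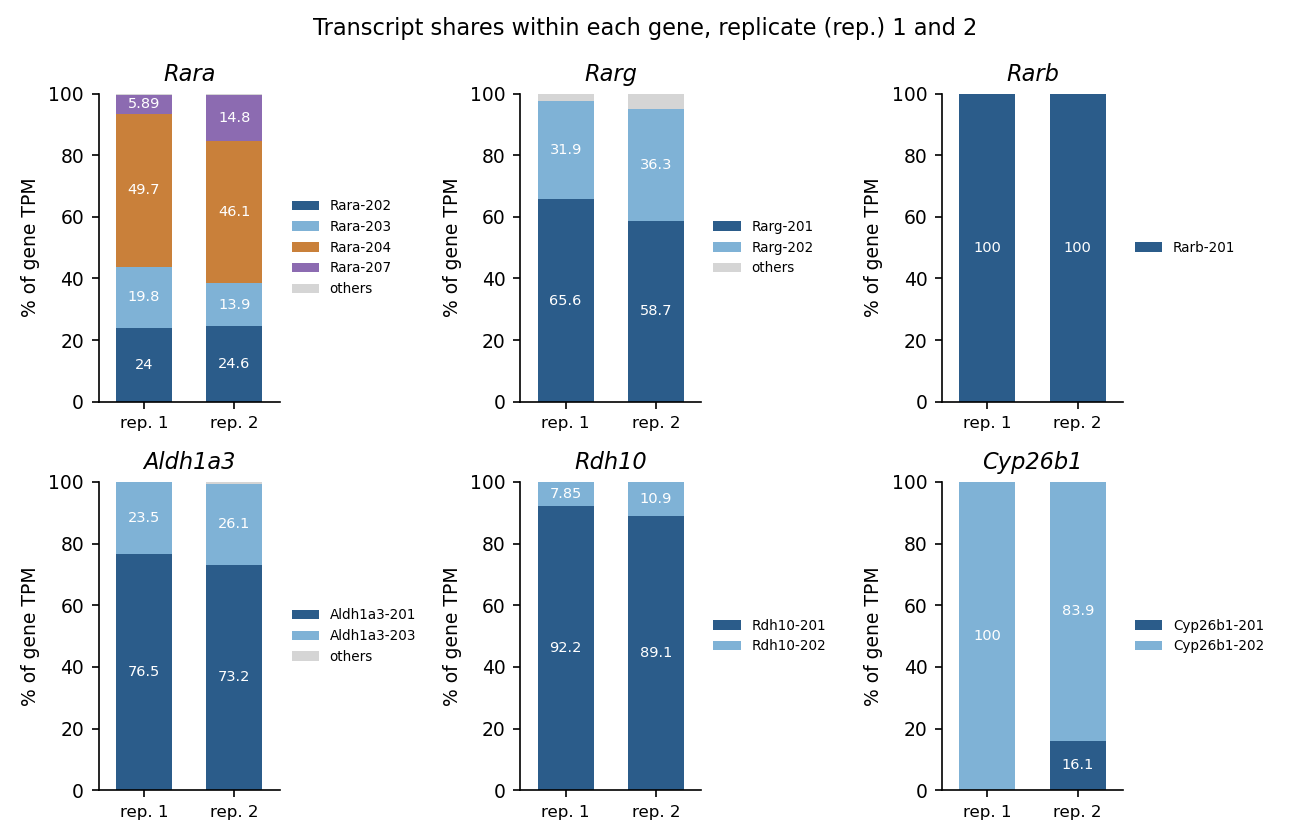
Share of each transcript in its gene's TPM, in percent, for 6 genes in replicate 1 (left bar) and replicate 2 (right bar), with transcripts below 10% in both libraries joined as others. Rara-202 takes 24.0% in replicate 1 against 24.6% in replicate 2, Rarg-201 65.6% in replicate 1 against 58.7% in replicate 2, and Rarb has a single listed transcript.

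Between the libraries none of the 10 genes passed 2-fold, where a gene was called when log2(TPM + 1) differed by 1 or more. Of the 15715 genes with a mean of 1 TPM or more 1.81% did, so a count of 0 in 10 is near the background and shows nothing particular to these genes. Of the 10 genes 9 were higher in replicate 1, as were 75.5% of those 15715 genes, and the exception in TPM was Aldh1a1. The median log2 ratio, replicate 1 over replicate 2, was 0.26 over the 10 genes and 0.14 over all genes compared, with an SD of 0.36 over all. Relative to the median gene, which has equally many of all genes above and below it, 7 of the 10 were above and 3 below. Those below were Aldh1a1 at −0.66, Rarg at −0.06 and Aldh1a3 at −0.03, and the sign of Rarg and Aldh1a3 therefore depends on the scaling.

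Crabp1 and Aldh1a2 had the highest ratios of the 10 genes. Crabp1 had a ratio of CPM of 1.26, replicate 1 over replicate 2 (exact 95% counting interval 1.22 to 1.31), where the median gene had 1.02. Aldh1a2 had 1.20 (1.12 to 1.29), Crabp2 1.18 (1.12 to 1.26), Rarb 1.17 (1.08 to 1.28) and Rdh10 1.14 (1.04 to 1.24). These 5 intervals lay above the ratio of the median gene, and that of Aldh1a1 lay below it. Of all 15715 genes 20.9% had an interval above the median gene and 22.3% one below it, or 43.2% together. Of the 10682 genes with counts in the range of the 10 genes in both libraries, 23.5% had an interval above the median gene and 21.4% one below it, or 44.9% together, so 6 of 10 is no result about the 10 genes. The intervals of Rara, Rarg, Aldh1a3 and Cyp26b1 held it, with 0.999 (0.953 to 1.05) for Rarg. The intervals cover counting error only and compare these libraries, not embryos in general.

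**Figure D4:**
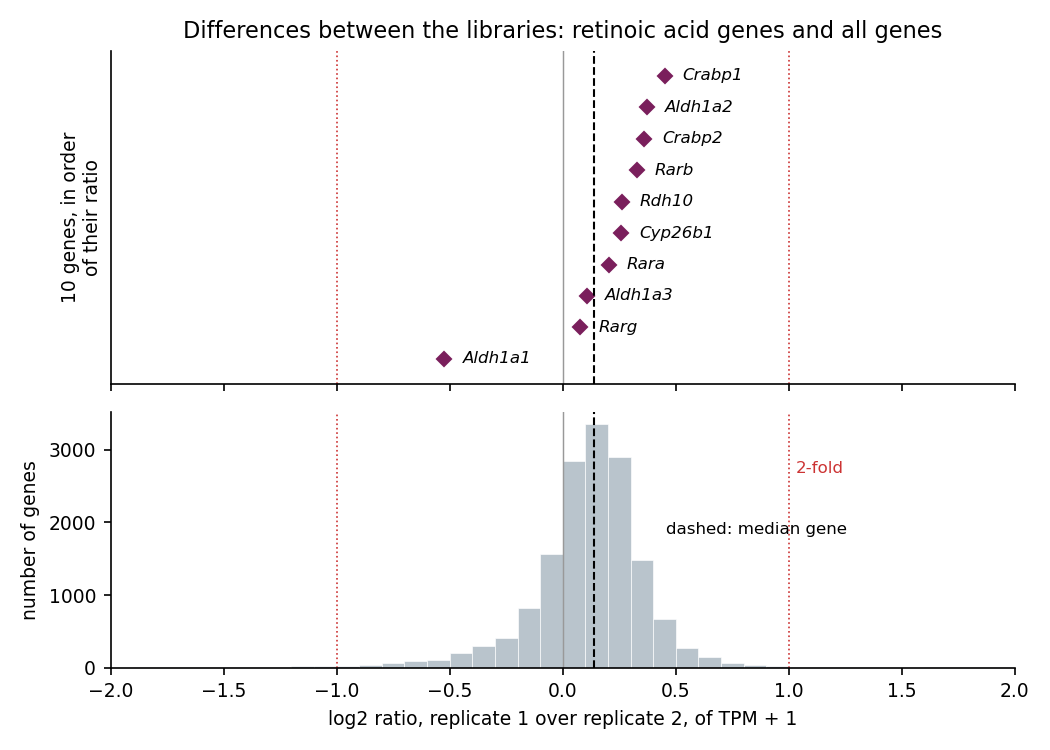
Log2 ratio of TPM + 1, replicate 1 over replicate 2, for the 10 genes (diamonds, above) and for genes with a mean of 1 TPM or more (bars of width 0.1, below, with 85 genes beyond the axis). The dashed line is the median gene at 0.14 and the dotted lines are 2-fold. Aldh1a1, at −0.52, is the only one of the 10 left of 0, and Rarg and Aldh1a3 also lie left of the dashed line.

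The libraries also differed in tissue markers. Cartilage markers, 5 of 5 expressed, summed to 759 TPM in replicate 1, against 438 TPM in replicate 2. Bone markers, 5 of 5 expressed, summed to 699 TPM in replicate 1 against 1013 TPM in replicate 2. Skeletal muscle markers, 5 of 5 expressed, summed to 2599 TPM in replicate 1 against 3579 TPM in replicate 2. Of these, 3 were higher in replicate 2 and 2, Myog and Ttn, slightly higher in replicate 1. Choroid plexus markers, 3 of 5 expressed, summed to 8.50 TPM in replicate 1 against 71.1 TPM in replicate 2. Of the 4 compared, 3 were higher in replicate 2, and Otx2 was near level at 4.21 TPM in replicate 1 against 4.15 TPM in replicate 2. The part of these differences in the ratios of Crabp1, Aldh1a2, Aldh1a1 and the other members was not tested. Spike-in RNAs made up 3.22% of all counts for replicate 1 and 5.43% for replicate 2, and 7.22% of the TPM in replicate 1 against 11.7% in replicate 2, which lowers the TPM of other genes more in replicate 2.

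In the order by mean TPM, 3 of the 9 neighbouring pairs had ranges that overlapped between libraries. Rara at 37.8 ± 3.87 TPM and Aldh1a2 at 36.1 ± 6.72 TPM changed places, as did Aldh1a1 at 6.39 ± 1.87 TPM and Cyp26b1 at 4.93 ± 0.75 TPM. Rarb at 16.9 ± 2.86 TPM and Rdh10 at 14.5 ± 1.97 TPM overlapped in range but kept their order in each library. The other 6 pairs had ranges apart.

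Of 52 other genes of the pathway, 36 (69.2%) reached 1 TPM in both libraries, beside 34.9% of all Ensembl genes. Among protein-coding genes 13717 of 21474 did, a share much closer to that of the pathway genes. The median level of the 52 was 12.0 TPM, beside 0.110 TPM over all Ensembl genes, which include many that are not protein-coding. Of the 39 with a mean of 1 TPM or more, 1 passed 2-fold and 32 were higher in replicate 1, beside the 1.81% and 75.5% of all genes compared, and 20 lay above the median gene.

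Vitamin A uptake, transport and storage was the thinnest list, with 3 of 9 genes expressed in both libraries and a median of 1.44 TPM. Rbp4, the retinol carrier of plasma, had 14.06 TPM in replicate 1 against 15.53 TPM in replicate 2, and Bco2, a carotenoid-cleaving enzyme, was the lowest at 0.150 TPM in replicate 1 against 0.120 TPM in replicate 2. Ttr, transthyretin, which binds Rbp4 in plasma and is made in choroid plexus, had 0.450 TPM from 10 counts in replicate 1, against 60.2 TPM from 1718 counts in replicate 2. Ttr is also one of the choroid plexus markers and made up most of their sum in replicate 2. It was the gene that passed 2-fold, and its ratio of CPM was 0.00694, with an exact 95% counting interval of 0.00332 to 0.0128. Stra6, the cell receptor for retinol-bound Rbp4, was chosen after its values were seen. It had 12.95 TPM in replicate 1, against 7.96 TPM in replicate 2, a ratio of CPM of 1.49 (1.32 to 1.67).

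Other oxidoreductases of retinol and retinaldehyde were mostly present, with 9 of 12 expressed in both and a median of 15.3 TPM. Adh5, a ubiquitous alcohol dehydrogenase, had 143.8 TPM in replicate 1, against 126.7 TPM in replicate 2. Dhrs3 came next, and Rdh14 had 35.94 TPM in replicate 1 against 31.12 TPM in replicate 2. Rdh16 had 0.0200 TPM from 1 count in replicate 1 and 0 TPM in replicate 2. Of the other retinaldehyde dehydrogenases and Cyp26 enzymes 2 of 4 were expressed in both, Aldh1a7 and Cyp26a1, and the median was 3.37 TPM. Aldh8a1 had 0 counts in both libraries, where 3 counts at an effective length of 2000 bases would be 0.0761 TPM in replicate 1, against 0.0589 TPM in replicate 2.

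Fabp5, which carries retinoic acid to the receptor Ppard instead of to Rar proteins, was higher than Crabp1 in both libraries. Fabp5 had 501 TPM in replicate 1, against 520 TPM in replicate 2, or 1.50 ± 0.37 times Crabp1. Ppard had 2.46 TPM in replicate 1 against 2.25 TPM in replicate 2. All 9 receptor coregulators were expressed, with a median of 25.8 TPM. Ncor1, a corepressor held by Rar proteins without ligand, had 124.5 TPM in replicate 1, against 108.3 TPM in replicate 2. Med1, a subunit of Mediator, had 41.09 TPM in replicate 1 against 35.28 TPM in replicate 2, Crebbp, a histone acetyltransferase, 31.08 TPM in replicate 1 against 27.08 TPM in replicate 2, and Ncoa1, a coactivator, was the lowest at 9.37 TPM in replicate 1 against 9.34 TPM in replicate 2.

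Of 17 genes known to respond to retinoic acid 12 were expressed in both libraries, with a median of 11.8 TPM over the 17. The highest were Dhrs3 and the homeobox genes Meis1 and Meis2. Meis1 had 42.48 TPM in replicate 1, against 35.75 TPM in replicate 2, and Meis2 had 31.09 TPM in replicate 1, against 23.27 TPM in replicate 2. Cdx1, a homeobox gene of the posterior embryo, had 0 counts in both. All 12 that were compared between the libraries were higher in replicate 1 in TPM, as were 75.5% of all genes compared, and relative to the median gene 8 were above and the others below. This list and the others share Dhrs3, Stra6, Cyp26a1 and Nrip1.

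**Figure D5:**
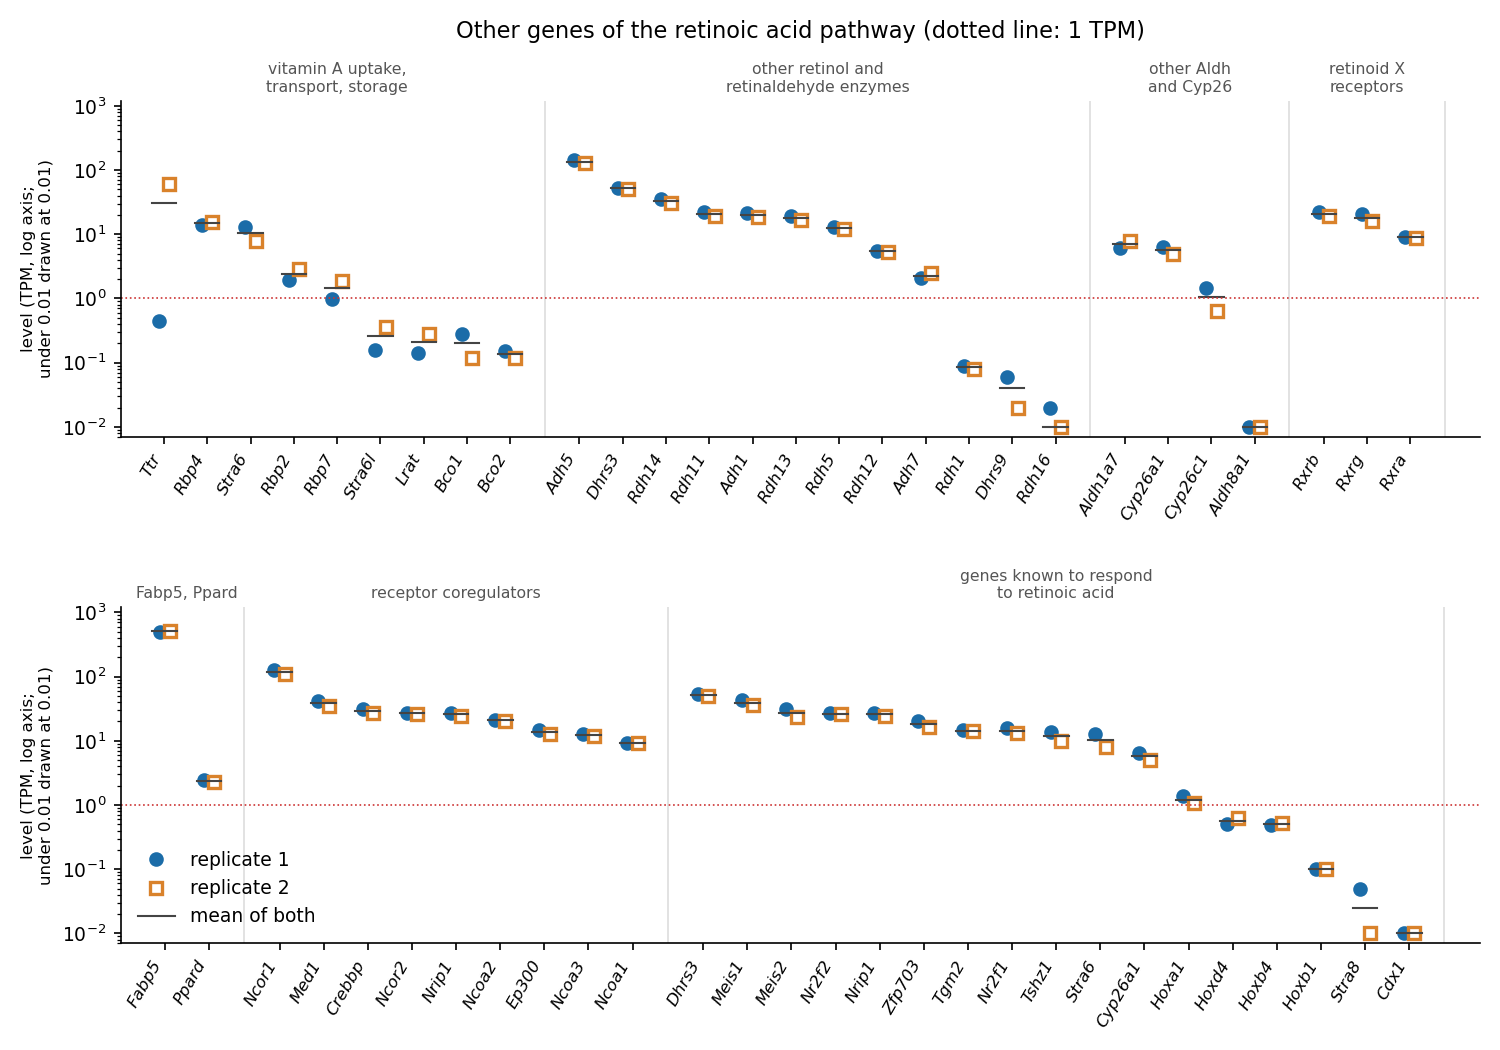
Levels of 52 other pathway genes in TPM on a log axis, by list, with replicate 1 as filled circles, replicate 2 as open squares, the mean as a line and a dotted line at 1 TPM. Genes in several lists are drawn in each. For Ttr the circle (replicate 1) lies at 0.450 TPM and the square (replicate 2) at 60.2 TPM, and those of the receptor coregulators nearly coincide.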

How the data were processed

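Total RNA-seq tables of 2 libraries were used, 1 gene table and 1 transcript table each. Expected counts, as deposited, are estimates of reads per feature made by the authors without scaling, per the file headers. TPM and FPKM were deposited beside them by the authors, scaled for length and depth over all features, spike-ins included. Transcript shares are the authors' percent of the gene's TPM, per the file headers. Build mm10 and GENCODE M4 are named in the companion text deposited with each library, whereas the sources used here do not name the aligner or the quantifier version, nor how strand was handled. Replicate numbers come from the labels.

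GENCODE M21, also on mm10, gave symbols and positions by Ensembl identifier (42462 of 43346 genes, 98.0%). Of 28 transcripts of the 10 genes 24 had the same length in M21. Expressed means 1 TPM or more in both libraries. Ratios are replicate 1 over replicate 2 of TPM + 1 on the log2 scale, which understates the change of low genes, over genes with a mean of 1 TPM or more. Counting intervals (exact binomial, 95%) use counts rounded to whole numbers, as do the edgeR TMM and DESeq2 size factors, which served for scaling alone. Counting error is all that intervals and the floor of 3 counts cover. Near copies were found with BLAST 2.17.0 over at least 200 aligned bases. Versions were edgeR 4.0.16 and DESeq2 1.42.0 in R 4.3.3, and scipy 1.17.1, pandas 2.3.3, matplotlib 3.10.9 and numpy 2.4.6 in Python 3.11.15.

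The members and lists were chosen with earlier results of these data known. One listed pathway gene is not reported here and was left out of the lists and their counts. Named are all 10 members, the retinoid X receptors, the 3 highest genes of each other list, the lowest where a list has 4 or more genes, and Rar transcripts at 10% or more. Alternatives were other thresholds, pseudocounts, filters, units and scalings, and each replicate left out. TPM rescaled over Ensembl genes alone, and the shares of all genes whose counting interval left out the median gene, were added after seeing the data.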

Additional observations from a re-analysis of the deposited data

How the results depend on the processing

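All 10 genes were at 1 TPM in both libraries, and also at 0.5 TPM, at 1 FPKM, at 1 posterior mean TPM and with either replicate left out. At 5 TPM 9 were. None of the 10 passed 2-fold under any of the pseudocounts, filters and scalings run, also with TPM over Ensembl genes alone, while the share of all genes past 2-fold ran between 0.420% and 3.12%. The number higher in replicate 1 was 9, 8 with FPKM, and 7 with TMM factors, DESeq2 size factors or centring on the median gene. The median log2 ratio of the 10 genes, 0.26, fell to 0.14 with TMM factors, 0.14 with DESeq2 size factors and 0.12 when centred, as these scalings take out the shift of all genes. Aldh1a1 kept the lowest ratio under each scaling and pseudocount, between −0.68 and −0.34. By expected counts, which are not scaled for length, Crabp1 took 70.1% of its class in place of 73.5%, and Rara-202 took 29.2% of Rara in place of 24.3%. By posterior mean TPM Rara-202 took 23.9%. Of the other pathway genes 31 to 39 were expressed under the other thresholds and units, against 36. Of 180 alternative values 143 stayed within the spread and 37 moved beyond it, 26 of them ratios of single genes. The spread was a fold margin for counts of genes, the counting interval for ratios and the SD over both libraries for shares. Leaving out either library moves a mean share by less than that SD, so those values could not leave the spread. Nor could the count of the 10 genes expressed, as all pass in each library. The tally is therefore no measure of robustness for them. The sign changed in 7 ratios, none of them past 2-fold in TPM. Rarg, at 0.08 in TPM, was −0.0030 with FPKM, −0.04 with TMM factors, −0.04 with DESeq2 size factors and −0.06 when centred. Aldh1a3, at 0.11 in TPM, was −0.0076, −0.0060 and −0.03 with the last 3. No paired analysis was possible because there is only 1 group. By counting error the ratio of Aldh1a1, the gene with the fewest counts of the 10, had the widest interval, measured as the upper bound over the lower.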
